A study of Caenorhabditis elegans with 2 samples.

Results

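The actin genes of Caenorhabditis elegans, act-1, act-2, act-3, act-4 and act-5, were examined for peaks of eGFP-tagged ALY-2 in whole first-stage (L1) larvae. They are 5 of 19973 annotated protein-coding genes on the nuclear chromosomes, and all 5 were found in the annotation. They were chosen by gene name with earlier peak results of these data known, so every value below is a description and none carries a test. The assay was chromatin immunoprecipitation with sequencing (ChIP-seq), which recovers DNA that lies close to a protein in fixed chromatin. The 2 biological replicates form 1 group and share 1 strain, OP217, with the genotype unc-119(ed3) III; ddIs172, mixed sexes and an age given as unknown. Neither a wild type nor an untagged strain is among them, and the labels do not say what drives the tagged gene or which antibody was used.

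ALY-2 is a worm member of the REF/ALY adaptors, which help to carry messenger RNA out of the nucleus and bind RNA rather than a set DNA motif. Actin polymerises into the filaments that shape cells, drive cytokinesis and, with myosin, contract muscle. In worms, act-1, act-2, act-3 and act-4 encode the actins of muscle and of the general cytoskeleton, whereas act-5 encodes an actin of microvilli in intestinal cells. Whole larvae hold all of these cells together. A weak peak from many cells and a strong peak from few cells therefore cannot be told apart.

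In the final list, act-1, act-2 and act-3 had peaks just past their 3′ ends and none at their promoters, where the longer pooled or replicate lists held weaker ones. This list of the authors holds 1446 peaks, and 4 of the 5 genes had a summit in the 3′ window, which ran from 200 bp before to 500 bp past the annotated 3′ end. Of all coding genes, 3.15% had one. The promoter window reached from 1000 bp before the annotated 5′ end to 200 bp into the gene. None of the 5 genes had a final summit there, against 5.58% of all coding genes. At so low a share, a lack of final promoter summits at 5 genes does not set them apart from other coding genes. In the annotated gene body 1 of 5 had a final summit, act-4, against 2.32%, and that summit was the same one as at its 3′ end. The act-5 gene had no final summit in any window, and 9.10% of coding genes had one in at least one window.

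**Figure D1:**
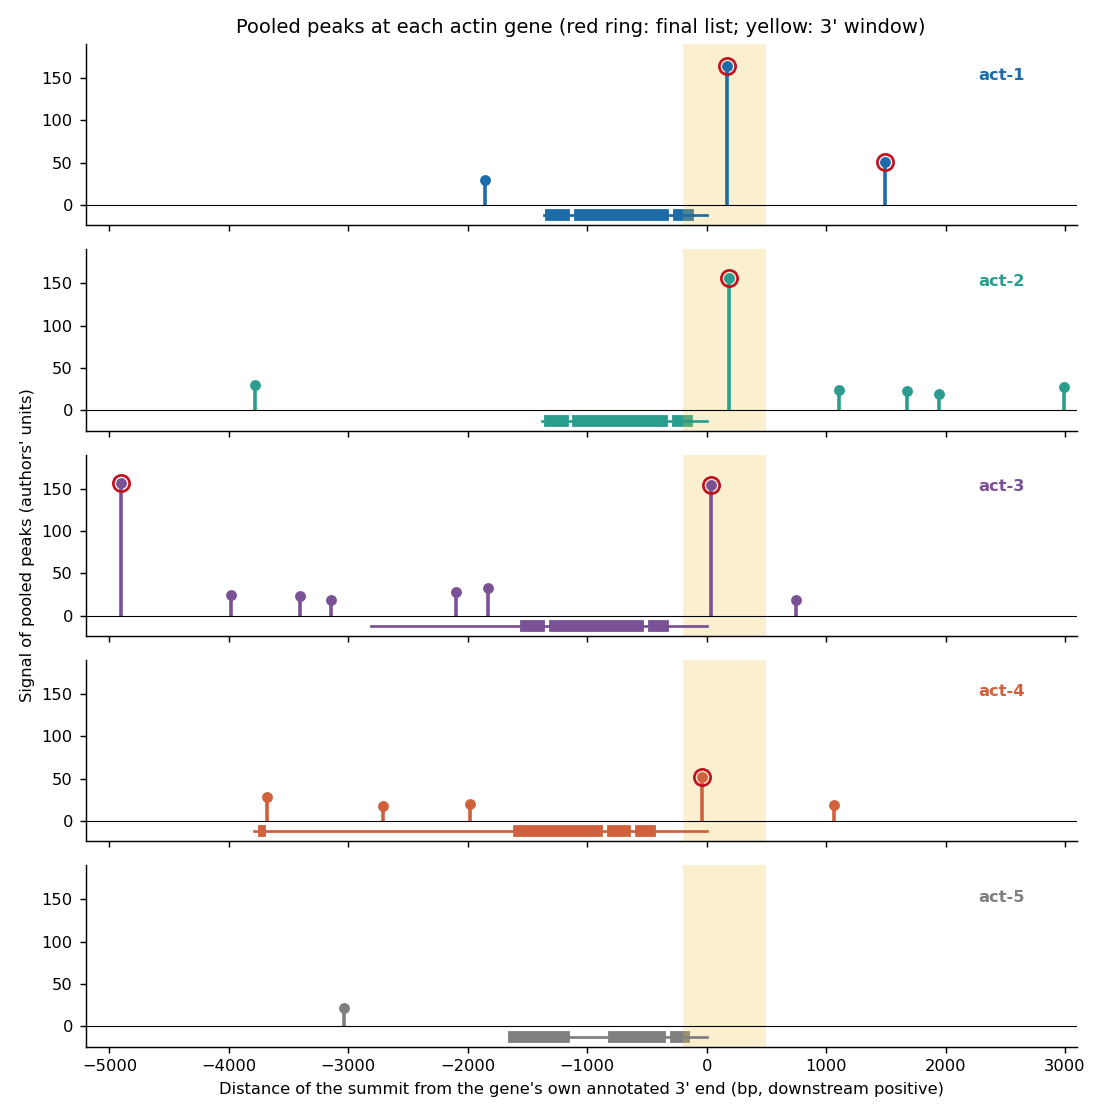
Signal of pooled peaks (vertical axis, in the authors' units) against the distance of each summit from the gene's own annotated 3′ end (horizontal axis, bp), for the 5 actin genes. Blocks below each axis are coding exons and the thin line is the gene. The peaks ringed in red within the yellow window reach 164, 156 and 154 at act-1, act-2 and act-3 and 52.3 at act-4, and act-5 has none. The ringed peak at the far left of the act-3 panel is the act-2 peak.

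The act-1 gene (WBGene00000063) lies on chromosome V from 11081052 to 11082415 on the plus strand of ce11. Its final peak ran from 11082404 to 11082763, with a summit 169 bp past the annotated 3′ end and 1532 bp from the 5′ end. The peak's signal, the authors' own value with no stated scale, was 164, and it ranked 46 of 1446. In the replicate lists the signal was 83.3 in replicate 1 and 79.6 in replicate 2, with ranks of 46 of 26798 and 63 of 25463. The summits lay 143 and 167 bp past the 3′ end. Both replicates thus held the peak, 24 bp apart. The summit also lay 20 bp past the 3′ end of the non-coding RNA gene T04C12.29, which is annotated on the opposite strand. It lay in the promoter windows of T04C12.29, 158 bp from that gene's 5′ end, and of T04C12.27.

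The act-2 gene (WBGene00000064) lies at 11076777 to 11078154 on the minus strand, with its 5′ end facing that of act-1 across 2897 bp. Its final peak, from 11076525 to 11076618, had a summit 183 bp past the annotated 3′ end, a signal of 156 and rank 55. Replicate 1 gave a signal of 69.7 and rank 84, and replicate 2 gave 89.0 and rank 38. These summits lay 176 and 185 bp past the 3′ end, or 9 bp apart, the closest of the 4 genes with a final summit. The summit lay inside the non-coding RNA gene T04C12.14, which is on the same strand as act-2. It lay in the promoter windows of T04C12.14, 72 bp from that gene's 5′ end, and of T04C12.15.

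The act-3 gene (WBGene00000065) lies at 11071690 to 11074498 on the minus strand, 2278 bp from act-2. Its final peak, from 11071564 to 11071657, had a signal of 154 and rank 58, with a summit 37 bp past the annotated 3′ end. Replicate 1 gave 78.6 and rank 58, and replicate 2 gave 79.9 and rank 62. The summits lay 7 and 45 bp past the 3′ end. Of the cluster's peaks this was the one nearest to the annotated end of its gene. The piRNA gene 21ur-13032 and the non-coding RNA gene T04C12.26 had the summit in their promoter windows too.

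These 3 final summits lay outside every annotated exon of the actin genes, and the bases around them are given below. The peaks were wider, and that of act-1 began at 11082404, before the gene's end at 11082415. In the replicates the act-3 peaks, from 11071501 to 11071864 and from 11071467 to 11071822, reached into the gene, which ends at 11071690. Each stretch below is read 5′ to 3′ along the strand of its actin gene, from the RefSeq assembly of WBcel235. The 11 bases centred on the final summit are in capitals. The stretches are chrV:11082534-11082634 on the plus strand, and chrV:11076544-11076644 and chrV:11071603-11071689 on the minus strand. The last begins at the first base past the gene. The act-2 and act-3 stretches extend beyond their final peaks, which end at 11076618 and 11071657.
act-1: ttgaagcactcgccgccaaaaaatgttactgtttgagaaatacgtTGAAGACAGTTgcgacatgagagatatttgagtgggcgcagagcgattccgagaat
act-2: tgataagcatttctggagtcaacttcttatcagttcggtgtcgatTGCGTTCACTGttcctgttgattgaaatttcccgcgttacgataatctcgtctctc
act-3: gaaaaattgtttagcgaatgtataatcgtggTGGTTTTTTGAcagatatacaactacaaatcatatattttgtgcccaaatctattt

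The bases at these summits shared little composition. In the 101 bases centred on the summit, G and C made up 44.6% at act-1, 42.6% at act-2, 26.7% at act-3 and 25.7% at act-4. Over the 250 final peaks at a coding 3′ end and in no coding promoter window, the median was 34.7%, with quartiles of 28.7% and 40.6%. The values for act-1 and act-2 were thus above that range, and those for act-3 and act-4 below it.

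The act-4 gene (WBGene00000066), on chromosome X from 4960621 to 4964413 on the plus strand, had a weaker final peak at its 3′ end. The peak ran from 4964193 to 4964552, with a signal of 52.3 and rank 929, and its summit lay 40 bp before the annotated 3′ end, in the 3′ UTR of the longer transcript. Replicate 1 gave a signal of 26.3 and rank 984, and replicate 2 gave 23.3 and rank 1527. The summits lay 47 and 128 bp before the 3′ end, or 81 bp apart, the widest gap of the 4 genes. The next gene, M03F4.6, ends on the same base from the other strand, so the summit also lay 40 bp past its 3′ end. The peak cannot be given to one gene rather than the other. Cut to its 1446 peaks of highest signal, replicate 2 alone did not include the act-4 peak and left 3 of 5 actin genes with a 3′ summit and none with a summit in the gene body.

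The act-5 gene (WBGene00000067), on chromosome III from 13604412 to 13606066 on the minus strand, had no summit in any window of the pooled list of 15675 peaks. The other 4 genes had one, against 43.9% of all coding genes. All 5 had one in replicate 1 and in replicate 2, against 59.2% of coding genes in each. The nearest pooled peak had a signal of 21.6 and lay 1386 bp upstream of act-5, outside its promoter window and in that of shpk-1, 568 bp upstream of that gene's 5′ end. In the 3′ window, 4 of 5 actin genes had a summit in the pooled list (19.0% of coding genes), 4 in replicate 1 (26.1%) and 5 in replicate 2 (25.9%). The act-5 summit of replicate 2 lay 230 bp past the 3′ end, with a signal of 13.4 and rank 6700. Weak promoter summits lay 957 bp upstream in replicate 1, rank 25030, and 826 bp upstream in replicate 2, rank 24399. Both of these promoter ranks were near the bottom of their lists, which include background peaks. The peaks around these promoter summits overlapped between the replicates, and the 3′ summit was held by replicate 2 alone.

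Ranks within each list put the 3 clustered genes far above act-4, and did not separate them from each other. Ranks were expressed as a percent of the list, so that a low value is a strong peak. The 3′ peak of act-1 stood at 0.172% in replicate 1 and 0.247% in replicate 2, or 0.210% ± 0.0536 (SD, n = 2). That of act-2 stood at 0.313% and 0.149%, or 0.231% ± 0.116 (SD, n = 2). That of act-3 stood at 0.216% and 0.243%, or 0.230% ± 0.0191 (SD, n = 2). The order of the 3 genes differed between the replicates, with act-1 first in replicate 1 and act-2 first in replicate 2, and their means differed by less than the spread between replicates of act-1 or act-2. The act-4 peak stood at 3.67% and 6.0%, or 4.83% ± 1.64 (SD, n = 2). Its values did not overlap those of the clustered genes. With 2 replicates no test of these differences was made.

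**Figure D2:**
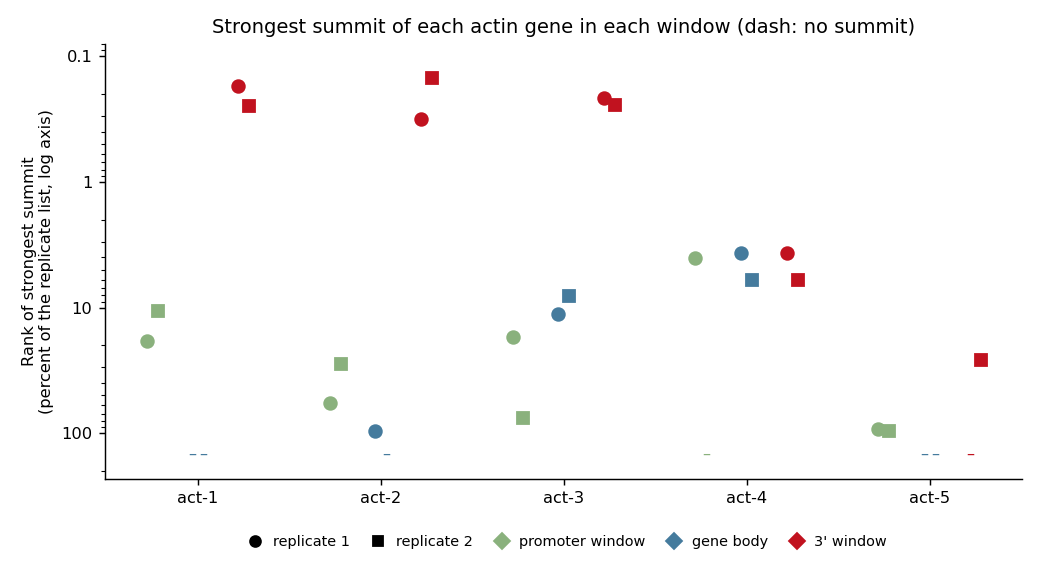
Rank of the strongest summit of each actin gene in the promoter window, gene body and 3′ window, as a percent of each replicate list (vertical axis, log scale, strongest at the top), with a dash where a list holds no summit. The 3′ summits of act-1, act-2 and act-3 lie between 0.149% and 0.313%, and every other summit shown lies at 3.67% or weaker.

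Distances from the stop codon were more alike than distances from the annotated 3′ end. The final summits lay at 169, 183, 37 and -40 bp from the 3′ ends of act-1, act-2, act-3 and act-4. Counted from the last coding base before the stop codon, they lay 284, 309, 362 and 392 bp downstream. The annotated stretches between that base and the 3′ end measure 115 bp in act-1, 126 bp in act-2, 325 bp in act-3 and 432 bp in act-4. In the replicates the summits lay 270.0 ± 17 bp past that base in act-1, 306.5 ± 6.36 bp in act-2, 351 ± 26.9 bp in act-3 and 344.5 ± 57.3 bp in act-4 (SD, n = 2 each). The means of act-3 and act-4 differed by less than their spread. Between act-1 and act-2 alone, the distances of the final summits from the 3′ end were the more alike. Distances from the stop codon were not measured over other coding genes, and the act-4 peak cannot be given to act-4 rather than M03F4.6.

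The last 30 bases to the annotated 3′ end show which genes carry the usual poly(A) signal AATAAA there, the letters searched on the gene's own strand only and set in capitals. They are chrV:11082386-11082415, chrX:4964384-4964413 (plus strand), chrV:11076777-11076806, chrV:11071690-11071719 and chrIII:13604412-13604441 (minus strand).
act-1: tgcaacaaggaaacatcatgcatatttccc
act-2: ttataaatctgcttcgtgtaagcatcgttt
act-3: atttcaagtcAATAAAtaatttcagaatta
act-4: ccacattcatAATAAAgcttttaataagac
act-5: tttcttaacatgAATAAActtgttaggacc

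The motif stood in these bases in act-3, act-4 and act-5, including the gene with no final peak, and in 45.5% of all coding genes. Over the whole 3′ window of 701 bases, 78.1% of coding genes held it at least once. There act-1 held it at 2 places, starting 6 and 62 bp past its annotated 3′ end, and act-2 held it nowhere. The final summit of act-1 thus lay past both matches.

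Weaker peaks were listed at the 5′ parts of act-1, act-3 and act-4 in the pooled list, which includes background peaks. There 3 of 5 actin genes had a promoter summit, against 24.9% of all coding genes. All 5 had one in replicate 1 (34.9% of coding genes) and 4, all but act-4, in replicate 2 (33.7%). The authors' −log10 q-values of the pooled promoter peaks were 0.729 at act-1, 0.0708 and 0.241 at act-3 and 0.646 at act-4. No final peak was below 2.50. For the act-4 promoter peak, replicate 1 gave 2.86 in its own list, whose highest value was 3.22. That value is not on the scale of the final list and cannot be set against 2.50. The act-1 summit lay 492 bp upstream, with a signal of 29.5 and rank 3237 of 15675. Replicate 1 had a summit 491 bp upstream, rank 4945, and replicate 2 had one 647 bp upstream, rank 2724. The non-coding RNA genes T04C12.16 and T04C12.25 overlap this pooled summit. At act-2 no pooled summit lay in the window, while replicate 1 had one 47 bp upstream, rank 15460, and replicate 2 had one 585 bp upstream, rank 7228. These peaks did not overlap.

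At act-3, the annotation gives long transcripts that start at 11074498 or 11074494 and a short one that starts at 11073264. Pooled summits lay 333 and 599 bp upstream of the longest transcript, with signals of 18.8 and 22.9, in the promoter window of T04C12.21 too. Stronger ones lay inside the first intron of the long transcripts. Their signals were 32.2 and 27.6, their ranks 2692 and 3825 and their −log10 q-values 0.995 and 0.546. These summits stood 260 and 524 bp upstream of the short transcript. Replicate 1 had summits at 264 and 537 bp upstream of that start, ranks 3023 and 21830, and replicate 2 had 1 at 384 bp, rank 2052. The signal of 32.2 was the highest of any pooled peak in an actin window that was not in the final list, whose weakest peak had a signal of 42.7.

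At act-4, a pooled summit lay 111 bp downstream of the 5′ end, inside the first intron, with a signal of 28.6 and rank 3493. Replicate 1 held it at 134 bp with a signal of 25.2 and rank 1079, close to the 984 of the 3′ peak, and replicate 2 held no summit in the promoter window. Cut to its 1446 peaks of highest signal, replicate 1 alone therefore gave 1 of 5 actin genes a promoter summit, against 0 in the final list. A further intron summit at 1849 bp from the 5′ end ranked 1288 in replicate 1, where the pooled list had 1 at 1814 bp with rank 9258 and replicate 2 had none within 500 bp. The nearest in replicate 2 was at 1281 bp, rank 11447. The 5′ peak and the stronger intron peak of act-4 were thus listed in replicate 1 and not in replicate 2, unlike its 3′ peak.

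**Figure D3:**
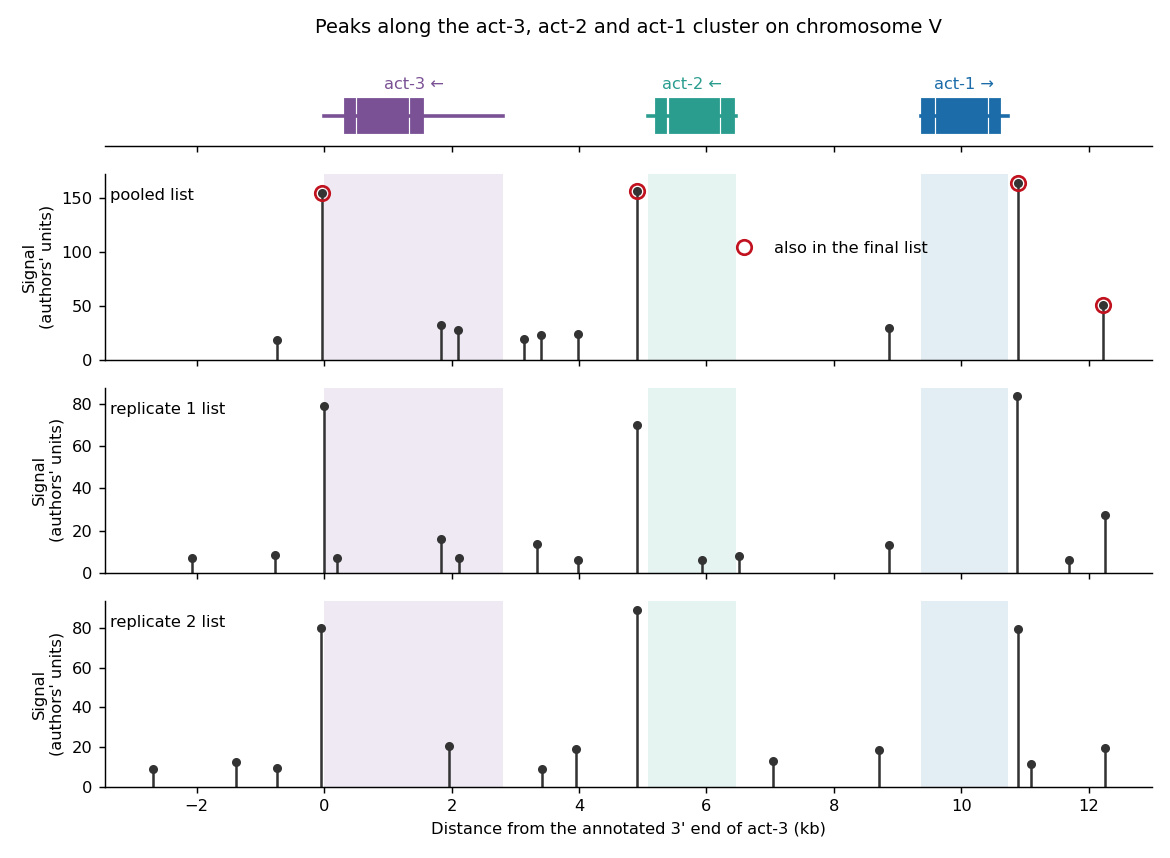
Signal of peaks (vertical axes, in the authors' units, each list on its own scale) along the act-3, act-2 and act-1 cluster, by distance from the annotated 3′ end of act-3 (horizontal axis, kb), in the pooled list and in each replicate list. Arrows give the strand and blocks the coding exons. In all 3 lists the tallest peaks stand at the 3′ ends of the genes, at 164, 156 and 154 in the pooled list, and no pooled peak stands within act-2 or act-1.

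The coding sequences of the actin genes are near copies of each other. In the gene body as a whole, 2 of 5 actin genes had a pooled summit, act-3 and act-4, against 25.1% of all coding genes, with 3 in replicate 1 (38.2%) and 2 in replicate 2 (38.1%). In coding exons alone, none of the 5 had a final summit, against 0.486% of all coding genes, and none had a pooled summit, against 9.64%. Replicate 1 gave 1 of 5 (18.0%), in act-2 with rank 25551 of 26798, and replicate 2 gave 0 of 5 (16.8%). With so few coding genes called, counts of 0 and 1 in 5 do not set the actin genes apart from the rest. The coding sequences of act-1 and act-3 were identical over 1128 bp. Those of act-1 and act-2 were 96.2% identical, with 43 codons that differ, of which 3 encode another residue. The act-4 sequence was 94.1% identical to act-1, with 61 differing codons, of which 1 encodes another residue. The act-5 sequence was 83.9% identical to act-1. The 500 bp past the 3′ ends were between 39.4% and 45.3% identical among the 5 genes, in global alignments.

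Reads from identical stretches cannot be placed on 1 gene, and the sources used here do not say how the authors treated them. Of all words of 30 bases in the coding sequence, the share found once in the nuclear genome was 0% in act-1 and act-3, 52.6% in act-2, 75% in act-4 and 96.9% in act-5. Within 180 bp of the final 3′ summits it was 100% in act-1, act-2, act-3 and act-4. In the promoter windows it ranged from 86.9% in act-1 to 100% in act-3, and in the 500 bp past act-5 it was 76.6%. The repeated words past act-5 lay close to its 3′ end. In bins of 50 bp that start 50, 100 and 150 bp past that end, the share was 0%, 60% and 34%. From 200 bp on it was 100%. With words of 50 bases, act-1 and act-3 coding sequence was still at 0%. The part of sequence copies in where summits were listed was not tested.

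**Figure D4:**
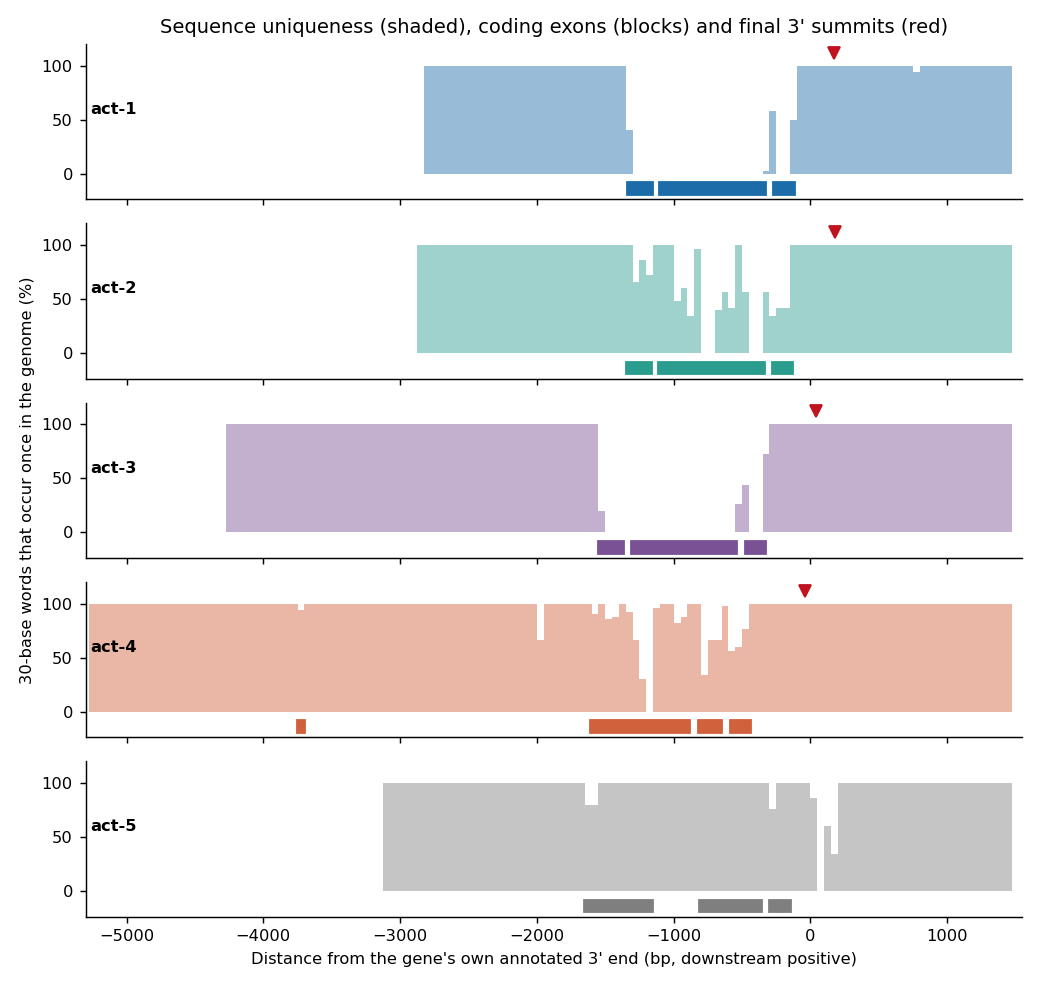
Percent of 30-base words that occur once in the nuclear genome (vertical axis, in bins of 50 bp) against distance from each gene's annotated 3′ end (horizontal axis, bp), with coding exons as blocks and final 3′ summits as red triangles. The coding exons of act-1 and act-3 fall to 0%, and all 4 summits stand where the value is 100%. Past the 3′ end of act-5 the value also falls to 0%, in the bin that starts at 50 bp.

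Among coding genes with a final summit at the 3′ end, the clustered actin genes were near the top. Such a summit was found at 630 coding genes. Of these, 131 also had a final summit in their own promoter window. Most, act-1, act-2, act-3 and act-4 among them, had none there. For 342 genes the strongest 3′ summit lay in no coding promoter window, and some of these genes shared a peak. Ordered by signal among the distinct peaks of these 342 genes, those of act-1, act-2 and act-3 stood at places 11, 13 and 14. That of act-4 stood at place 173. The median signal over these distinct peaks was 61.6, and the highest was 328. The genes next in order, chosen after their values were seen, were nlp-40 and rcor-1 with a shared peak above act-1, cnnm-3 with a signal of 158 between act-1 and act-2, and F59B8.1 and idh-1 with 149.9 below act-3. The gene above act-4 was tag-353 and the one below was tln-1, which encodes talin, a protein that links integrins to actin. The summits of the 342 genes lay at a median of 82.5 bp past the 3′ end, with quartiles of -3 and 183.75 bp, so those of act-1, act-2 and act-3 fell within the quartiles and that of act-4 before the lower one.

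**Figure D5:**
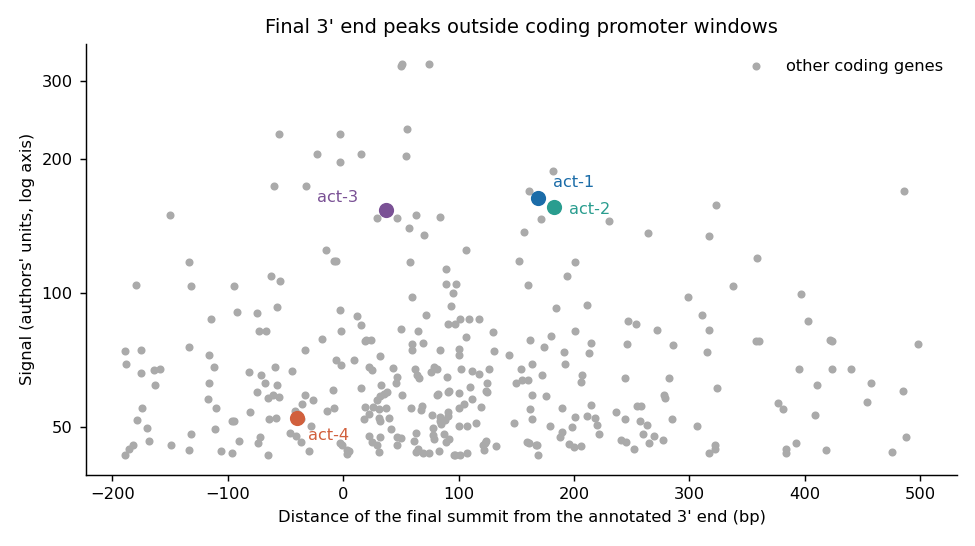
Signal of the final peak (vertical axis, authors' units, log scale) against its summit's distance from the annotated 3′ end (horizontal axis, bp) for the 342 coding genes whose 3′ summit lies in no coding promoter window. The points of act-1, act-2 and act-3 stand between 154 and 164. That of act-4 stands at 52.3, below the median signal of 61.6 over the distinct peaks of these genes.

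Of the coding genes next to the actin genes, 1 had a final summit. The neighbours T04C12.8 and Y42A5A.1 at the edges of the cluster, M03F4.4 beside act-4, and T05D4.5 and shpk-1 beside act-5 had none in any window, and M03F4.6 had the summit that lies in the 3′ windows of both it and act-4.

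Among genes that act on actin filaments, final summits lay at promoters, in gene bodies and at 3′ ends. The list held 54 genes of known roles, 52 of which were found, and it was chosen with earlier results of these data known. A final promoter summit was found at 7 of 52 (13.5%), against 5.58% of all coding genes, and a 3′ summit at 4 of 52 (7.69%), against 3.15%. A summit in the gene body was found at 5 of 52 (9.62%), against 2.32%, the strongest with a signal of 213 at vab-10, which encodes a spectraplakin that links actin to other filaments. In at least one window, 13 of 52 (25%) had one, against 9.10%. The gene body window grows with gene length, for which no share here was adjusted. In the pooled list, 24 of 52 (46.2%) had a 3′ summit, against 19.0%, and 16 of 52 (30.8%) a promoter summit, against 24.9%. No test was made of these shares.

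The 7 promoter summits fell to several roles. The strongest was at cap-2, a subunit of the actin capping protein, with a signal of 133 and a summit that gmps-1 shares. Regulators of the Arp2/3 complex, which nucleates branched filaments, held 3, at wip-1 with 107, wve-1 with 102 and gex-3 with 65.6. The first is shared with larp-1 and the second with R06C1.4. The complex itself held 1, at arx-7 with 43.8. The others were spc-1, for alpha spectrin, with 85.4, and erm-1, for the protein that links actin to the membrane of intestinal and other epithelia, with 43.5 at a summit shared with C01G8.10.

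The 4 summits at 3′ ends were at frl-1, a formin, with 104, spc-1 with 96.2, sma-1, the heavy spectrin of epithelia, with 55.3 and deb-1, vinculin, with 48.1. Each lay in the promoter window of another gene, namely gcn-1, mai-1, R31.2 and rps-4, unlike the 3′ summits of act-1, act-2, act-3 and act-4, which lay in no coding promoter window.

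Tubulin genes, which encode the other main cytoskeletal polymer, had a final 3′ summit in 3 of 16 cases and a promoter summit in 2 of 16, against 3.15% and 5.58% of all coding genes. The 3′ summits were at tbb-2 with a signal of 109, tba-1 with 90.3 and tba-2 with 63.6. Of these, the one at tbb-2 lay in no promoter window, 194 bp past the 3′ end. It also lay in the 3′ windows of C36E8.4 and 21ur-13952, so it cannot be given to tbb-2 alone. All 3 of these tubulin 3′ summits had a lower signal than act-3, the lowest of the clustered actin genes.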

How the data were processed

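Each replicate list, the pooled list and the final list on ce11 came from the authors, who made them from each replicate's alignment and a further alignment that also served the control-normalized signal, and who thresholded the final list on the irreproducible discovery rate, per the labels and the deposited description files. The sources used here do not name the aligner or caller, their versions or the read depth. Each deposited peak carries a signal value and, read by the standard narrow-peak column layout, a −log10 q-value, both the authors' own. The −log10 q-value was at its list maximum, 3.12, for the final 3′ peaks of act-1, act-2 and act-3 and was 2.79 for act-4. Values were used only within a list. All 1446 final peaks were the pooled peaks of highest signal. Ranks run from the highest signal. Chromosome lengths and names fitted WBcel235, and 99.8% of coding sequences began with ATG there. Genes came from Ensembl release 115, sequence from RefSeq. The summit is the deposited start plus offset, counted from 1. Window counts were checked on planted summits. Members and lists were chosen with earlier results of these data known. Named genes were the members, genes that share a member's summit, coding neighbours, and list genes with a final promoter summit. Other genes named were chosen after their values were seen. Neither inft-1 nor flil-1 was found in the annotation. The 2 replicates' spread may be partly technical. Alternatives were whole-peak overlap, narrower windows, nearest 5′ end, any transcript, the upper 50% of each list and leaving out a replicate. Lists on ce10 and the control library were not used here. Python 3.11.15, pandas 2.3.3, NumPy 2.4.6 and Biopython 1.88 were used.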

Additional observations from a re-analysis of the deposited data

How the results depend on the processing

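The final count at the 3′ end, the pooled count in any window and the final promoter count of the actin regulators stayed within 1.5 times under the alternatives run for each. The regulators behind that last count changed, and only cap-2, gex-3 and wip-1 were in it under every alternative. Without replicate 1, ani-1 replaced arx-7. Without replicate 2, erm-1 was lost and pfn-1 and unc-60 entered. The upper 50% of the list lost arx-7 and erm-1, and the narrower window lost spc-1 and wve-1. The promoter count of 0 of 5 was 0 to 1 when a replicate was left out, the 1 being act-4 from replicate 1, and 0 under the other alternatives. The gene body count of 1 of 5 was 2 when any base of a peak counted, 0 in the upper 50% of the list, and 0 to 1 when a replicate was left out. The remaining counts in the text were run under no alternative. The windows around annotated ends decide which peaks count, and the read depth is unknown, so a lack of a peak says only that none was listed. No paired analysis was possible because there is 1 group.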

Other observations

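A further final peak lay beyond the cluster, 1496 bp past the 3′ end of act-1 and outside every window of a coding gene, on chromosome V from 11083731 to 11084090. Its signal was 51.0 and its rank 993. Replicate 1 ranked it 905 and replicate 2 ranked it 2340, with both summits 1526 bp past the 3′ end of act-1. It lay 122 bp upstream of the non-coding RNA gene T04C12.22.

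The final peaks of act-2 and act-3 were each 94 bp wide, and no other peak of the final or pooled list had that width. Of the 1446 final peaks, 1419 were 360 bp wide and 25 were narrower. In the replicate lists the peaks of both genes had the usual widths of 364 and 356 bp.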
